A study of Homo sapiens with 14 samples.

Results

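The miRNAs described here carry numbers in the range from miR-4251 to miR-4810. Such high numbers mark miRNAs that were annotated late, after deep sequencing had made rare small RNAs countable. The count tables held 502 rows with these numbers once miR-4454 and miR-4521 were set aside, among 2588 mature miRNAs in all. A row was kept if it had at least 10 counts in at least 3 of the 10 m7G-RIP-seq libraries, which left 83 miRNAs. The same count rule was passed by 793 of the 2588 rows. Of the 419 rows that were not kept, 219 had 0 counts in every one of the 14 libraries. The members were thus selected on their counts in the immunoprecipitate and Input libraries, and the BoRed-seq libraries played no part.

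N7-methylguanosine (m7G) is a guanine base with a methyl group and a positive charge on its ring. It is best known from the cap of mRNA and from inner positions of tRNA and rRNA. A mature miRNA is a short RNA cut from a hairpin by DROSHA and DICER1. Its seed, bases 2 to 8, pairs with target mRNAs. Both assays retain whole molecules, so neither gives the position of m7G within a miRNA.

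All libraries came from A549, a human lung adenocarcinoma cell line, so each comparison rests on 1 line. In BoRed-seq, total RNA was decapped and treated with NaBH4 in the presence of free m7GTP, low pH then removed the reduced m7G bases, and a biotin probe on the abasic sites allowed a streptavidin pulldown (Red, 2 libraries). The control RNA (Ctrl, 2 libraries) met NaBH4 that acid had already quenched and was handled alike. In m7G-RIP-seq, heat-denatured, decapped RNA was pulled down with an antibody against m7G (IP, 5 libraries) and set against the RNA before the pulldown (Input, 5 libraries). The labels do not say whether replicates came from separate cultures, so the p-values measure the spread between these libraries, which may be technical.

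Depth set a hard limit in BoRed-seq. Totals over all miRNAs were 242085 and 277498 counts in Red against 4678102 to 5874405 in Ctrl, 7097379 to 14874685 in Input and 2854811 to 6452759 in IP. A count of 0 allows a share of up to 0.00124% in the smallest Red library, the share that 3 counts would make. The labelled cell type was checked on a few miRNAs. miR-21-5p, abundant in epithelial tumour cells, made 380417 to 462595 CPM (counts scaled to the library total) in Input. miR-200c-3p, an epithelial miRNA, made 55.4 to 88.2, and miR-141-3p, of the same family, had at most 4 counts there. The liver miRNA miR-122-5p was at 0 in all libraries, and the 4 blood miRNAs looked at (miR-142-3p, miR-223-3p, miR-144-3p and miR-451a) had at most 10 counts in any Input library. Of 2 neural miRNAs, miR-9-5p was present at 301 to 492 CPM in Input. The other, miR-124-3p, had a median of 0 in Ctrl, Input and IP and 3 and 13 counts in Red. Its highest counts were 18 in Input and 15 in IP. Of 3 muscle miRNAs, miR-1-3p had 4 to 46 counts in Input and 41.3 to 43.2 CPM in Red. Both miR-133a-3p and miR-206 had at most 2 counts in Input and 0 in Red, while miR-206 reached 27 counts in IP.

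The mature sequences on which the results turn are given 5′ to 3′ from RefSeq (GRCh38.p14), which matched 72 of the 83 miRNAs, with the seed in capitals. The first set holds short miRNAs that were higher in Red than in Ctrl:
miR-4426: gAAGAUGGacguacuuu
miR-4443: uUGGAGGCguggguuuu
miR-4444: cUCGAGUUggaagaggcg
miR-4488: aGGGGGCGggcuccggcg
miR-4497: cUCCGGGAcggcugggc
miR-4500: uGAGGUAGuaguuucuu
miR-4485-3p: uAACGGCCgcgguacccuaa
miR-4429: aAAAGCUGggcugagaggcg

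The next set gives both arms of 2 hairpins of which 1 arm was called in the antibody pulldown and the other was not, and an arm from another hairpin that was lower in IP than in Input:
miR-4728-5p: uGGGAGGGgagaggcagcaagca
miR-4728-3p: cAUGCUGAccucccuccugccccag
miR-4687-5p: cAGCCCUCcucccgcacccaaa
miR-4687-3p: uGGCUGUUggagggggcaggc
miR-4473: cUAGUGCUcuccguuacaagua

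The last set holds miRNAs that share a seed with one of the first set or with each other:
miR-4458: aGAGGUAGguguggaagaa
miR-4647: gAAGAUGGugcugugcugaggaa
miR-4706: aGCGGGGAggaagugggcgcugcuu
miR-4749-5p: uGCGGGGAcaggccagggcauc

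Shared seeds tied some of these miRNAs to older families. miR-4500 and miR-4458 carry GAGGUAG, the seed of the let-7 family, and miR-4500 also has a run of 14 bases in common with let-7g-5p and let-7i-5p. miR-4429 carries the seed AAAGCUG of miR-320b, miR-320c and miR-320d. miR-4426 and miR-4647 share AAGAUGG, and miR-4706 and miR-4749-5p share GCGGGGA. The seed of miR-4728-5p is that of miR-149-3p and miR-6785-5p.

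Several of the short sequences are not unique in the genome, so reads from other RNAs cannot be told apart from them. Of the 72 sequences, 57 matched GRCh38 at 1 place and 15 at more. miR-4426 (chromosome 1, 192716333 to 192716349, plus strand) lies in a processed pseudogene of the ribosomal protein gene RPS27A, and its 17 bases recur in an exon of RPS27A itself (chromosome 2, 55234166 to 55234182) and in other RPS27A pseudogenes, 5 places in all. miR-4485-3p (chromosome 11, 10508277 to 10508296, minus strand) also stands whole in the mitochondrial 16S rRNA gene MT-RNR2 (chromosome M, 2563 to 2582). miR-4488 (chromosome 11, 61508599 to 61508616, plus strand) had 10 places, among them 28S rRNA genes on chromosome 21. miR-4466 (chromosome 6, 156779710 to 156779727, minus strand) had 6, among them 45S pre-rRNA genes. miR-4444 is annotated at 2 loci, in the UTR of HNRNPA3 (chromosome 2, 177212768 to 177212785, plus strand), the gene of an RNA-binding protein, and on chromosome 3, and its bases occur at 3 places. Every count of miR-4444 was even in all 14 libraries. The same held for miR-4435, miR-4436b-5p and miR-4436b-3p, annotated at 2 loci as well. Halving such counts changed no number of calls by more than 1.5 times. miR-4443 (chromosome 3, 48196572 to 48196588, plus strand, intergenic), miR-4497 (chromosome 12, 109833350 to 109833366, plus strand, opposite the UTR of TRPV4) and miR-4429 (chromosome 2, 11540652 to 11540671, minus strand, opposite an intron of GREB1) each matched 1 place.

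Together the 83 miRNAs made up little of any library, and more of the pulldowns than of their controls. Their share of all counts was 0.0165% and 0.0196% in Ctrl and 0.145% and 0.169% in Red. In m7G-RIP-seq it was 0.0689% ± 0.0035 (SD, n = 5) in Input and 0.102% ± 0.0186 (n = 5) in IP, with a lowest IP value of 0.0823% above the highest Input value of 0.0727%. These shares are a description, because the IP and Input levels chose the members. Over the same libraries the share of miR-21-5p, the most abundant miRNA in Ctrl, went the other way. It was 789608 and 804231 CPM in Ctrl against 266701 and 268782 in Red. In m7G-RIP-seq it was 380417 to 462595 CPM in Input against 46395 to 62650 in IP. The part of miR-21-5p in the shares of the 83 was not tested. Fewer of the 83 were seen at all in the shallow Red libraries (38 and 42) than in Ctrl (56 and 58), Input (73 to 82) or IP (62 to 73).

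A single miRNA dominated the sum. miR-4326 had a mean of 2647 ± 187 normalised counts (counts divided by the library's DESeq2 size factor; SD, n = 5) in Input, was the most abundant of the 83 in 9 of the 10 m7G-RIP-seq libraries, and ranked 95 among all miRNAs there. miR-4664-3p, miR-4473, miR-4444 and miR-4746-5p followed. The remainder were scarce. Among the 61 that entered the m7G-RIP-seq test, the median of the mean Input level was 15.7 normalised counts against 78.0 over all 670 miRNAs tested, and 6 of the 83 reached a mean of 100.

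The threshold cut through a dense part of the list. miR-4425, miR-4474-3p and miR-4517 stood just inside, each with 10 counts in the lowest of its 3 best libraries, and had 6 to 25, 0 to 16 and 1 to 13 counts in the Input libraries. miR-4511, miR-4652-5p and miR-4667-5p stood just outside with 9 counts there, and had 7 to 11, 0 to 17 and 1 to 9. Of the 83, 37 had at least 10 counts in 3 Input and in 3 IP libraries, 20 in Input alone, 17 in IP alone, and 9 reached the rule only over both groups.

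BoRed-seq asked which of these miRNAs were retained after reduction of m7G, in libraries that had no part in choosing them. Of the 83, 19 had the 10 counts in at least 2 libraries that the test needed, and DESeq2 gave 16 of them an adjusted p. It called 11 enriched in Red and 1 depleted, where over all 400 miRNAs tested 32.2% were called enriched and 27.2% depleted. That count has to be read with the filter. Of the 11, 9 reached 10 counts in the Red libraries and not in both Ctrl libraries, so they had to be high in Red to be tested at all, and only miR-4500 had at least 10 counts in both. The median log2 (the fitted log2 ratio of Red to Ctrl) of the 16 was 3.87 against -0.09 over all 400.

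**Figure D1:**
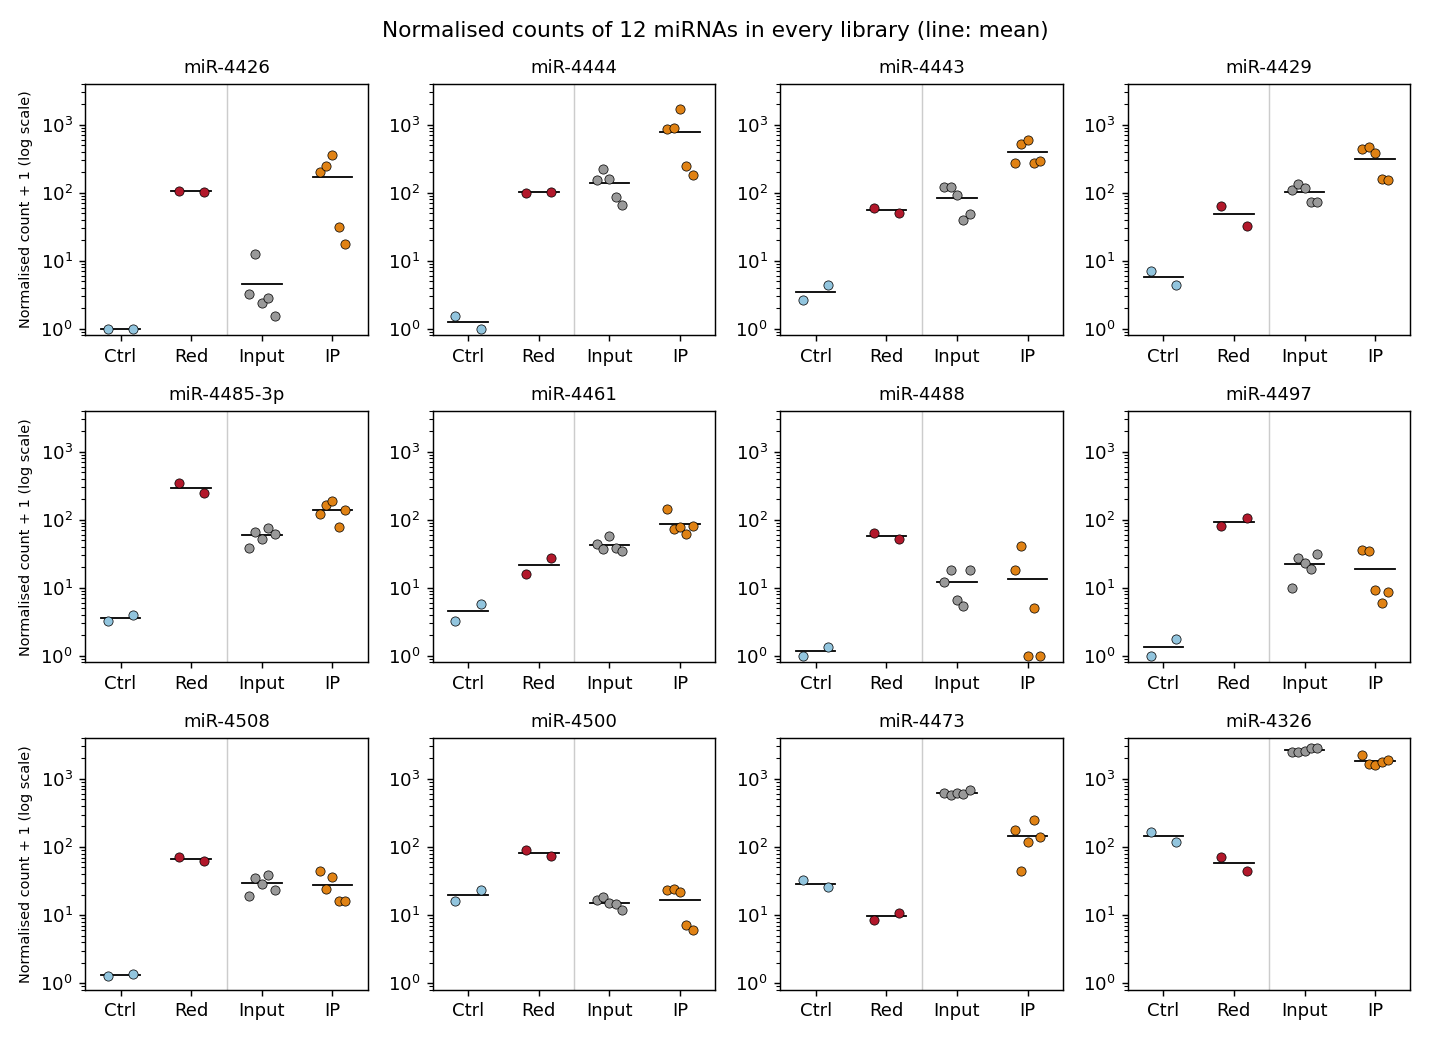
Normalised counts plus 1 (log scale) of 12 of the miRNAs, 1 panel each, in the Ctrl and Red libraries of BoRed-seq and the Input and IP libraries of m7G-RIP-seq, with each point a library and each line a group mean. The 2 assays were normalised apart. miR-4426 sat at 0 counts in both Ctrl libraries and above 100 normalised counts in both Red libraries, while miR-4473 and miR-4326 were lower in each pulldown than in its control.

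miR-4485-3p gave the BoRed-seq enrichment with the smallest adjusted p among the members, with 8 and 8 counts in Ctrl and 92 and 101 in the far shallower Red libraries. Its log2 was 6.84 ± 0.54 (SE; adjusted p of the DESeq2 Wald test = 1.7e-35). It held more counts than any other of the 83 in both Red libraries and made up 21.5% and 26.2% of their counts there. The other arm of its hairpin, miR-4485-5p, had 1 and 5 counts in Ctrl and 17 and 31 in Red, a log2 of 6.13 ± 0.89 (adjusted p = 2.5e-11).

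The other large enrichments rested on almost empty control libraries. miR-4426 had no count in Ctrl and 28 and 42 counts in Red, at least 217-fold higher when Ctrl is set to the limit of 3 counts over the group. miR-4444 had 2 and 0 counts in Ctrl and 26 and 42 in Red, a 316-fold ratio. As its counts come in steps of 2, its exact 95% counting interval was taken on the halved counts, 34 against 1, and is 53.0 to 12834. miR-4497 had 0 and 2 counts against 22 and 43, a 302-fold ratio (95% interval 80.3 to 2545).

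miR-4508 and miR-4488 were of the same kind. miR-4508 had 1 and 1 counts in Ctrl and 19 and 25 in Red, a 204-fold ratio (53.3 to 1740). miR-4488 had 0 and 1 counts against 17 and 21, a 353-fold ratio with a very wide interval (59.6 to 14301). All 5 were called enriched. The intervals cover counting error only, and no molecular identifiers are used in these tables.

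miR-4443, miR-4429, miR-4461 and miR-4500 were counted in both groups and enriched by less. miR-4443 had 6 and 9 counts in Ctrl and 16 and 20 in Red (log2 4.46 ± 0.78, adjusted p = 4.3e-08). miR-4429 had 22 and 9 against 17 and 13 (log2 3.29 ± 0.78, adjusted p = 7.0e-05). miR-4461 had 8 and 13 against 4 and 11 (log2 2.60 ± 1.04, adjusted p = 0.023).

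miR-4500, the let-7 seed miRNA, had 55 and 61 counts in Ctrl and 24 and 30 in Red (log2 2.10 ± 0.56, adjusted p = 0.00046). The raw counts of miR-4500 were lower in Red, and the enrichment is that of the normalised counts, 15.2 and 22.7 in Ctrl against 88.9 and 73.4 in Red. The Red and Ctrl libraries did not overlap for 18 of the 19 miRNAs in the fit, against 81.5% over all miRNAs in the fit. Calls of single members depended on 1 library in places. With the miRNAs of the full fit kept, miR-4500 lost its call without Ctrl replicate 1 (log2 1.73 ± 1.00, adjusted p = 0.16), and miR-4461 without Ctrl replicate 1 (2.02 ± 1.89, 0.43) and without Ctrl replicate 2 (3.21 ± 1.80, 0.13). With the filter applied anew to the 3 remaining libraries, miR-4500 also lost it without Ctrl replicate 2 (1.82 ± 0.90, 0.070), as it did with Ctrl thinned to the depth of Red (1.81 ± 0.94, 0.073), and miR-4429 without Ctrl replicate 2 (2.36 ± 1.19, 0.075). With no count filter miR-4461 was not called (2.09 ± 1.26, 0.18). The 11 enriched members became 3 without Red replicate 1 and 2 without Red replicate 2, because a miRNA counted in Red alone then cannot reach 10 counts in 2 libraries. With the miRNAs of the full fit kept, leaving out any 1 of the 4 libraries gave 9 to 11.

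miR-4326 was the only member called depleted in Red. It had 600 and 315 counts in Ctrl and 19 and 18 in Red, with normalised counts of 166 and 117 against 70.4 and 44.05 and a log2 of -1.33 ± 0.50 (adjusted p = 0.014). The call was lost without Red replicate 1 (-1.32 ± 0.67, adjusted p = 0.093) and without Red replicate 2 (-0.86 ± 0.66, 0.28). With the miRNAs of the full fit kept, it was lost without Ctrl replicate 1 (-1.16 ± 0.91, 0.33), Ctrl replicate 2 (-1.59 ± 0.79, 0.079) or Red replicate 2 (-1.09 ± 0.66, 0.15). With sizes set by total counts, miR-4326 had a log2 of -0.24 ± 0.55 (adjusted p = 0.71).

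The abundant miR-4473 and miR-4664-3p were not called in BoRed-seq by DESeq2. miR-4473 had 114 and 66 counts in Ctrl and 2 and 4 in Red (log2 -1.68 ± 0.96, adjusted p = 0.12). miR-4664-3p had 89 and 69 against 1 and 4 (log2 -1.82 ± 1.04, adjusted p = 0.12). edgeR's quasi-likelihood test called both depleted, at -1.83 and -1.95 with an adjusted p of 0.028 for each, and also called miR-4677-3p and miR-4684-3p, which had 0 counts in both Red libraries. miR-4746-5p and miR-4787-3p were not called by either tool, with a log2 of 0.27 ± 1.32 and 0.10 ± 1.39. The other 64 miRNAs could not be tested, with at most 15 counts in any Ctrl library and 8 in any Red library, and 3 of them had no count in the 4 libraries.

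The BoRed-seq calls also differed in length, which is given as a description. Of the 8 enriched members with a sequence, 7 reached the filter through Red alone, and the 6 others with a sequence reached it through Ctrl alone, so that the filter largely set which of them could be called enriched. The 8 enriched members with a sequence in the reference table were 17 to 20 bases long (median 17.5), while the 3 that were tested and not called were 22 to 24 and the 3 without an adjusted p were 22. Over all miRNAs tested in BoRed-seq, 13 of the 14 with 17 or 18 bases and 12 of the 16 with 19 or 20 bases were enriched, against 27.4% of the 325 with 21 to 27 bases. The median log2 was 6.01, 3.61 and -0.21. The first of these groups is small, 6 of its 14 are the miRNAs described here, and the same filter applied to all. Across all 355 with a sequence the correlation of log2 with length was weak (Pearson -0.22, Spearman -0.12). It is taken across miRNAs of the same libraries, which are not independent replicates. The short miRNAs were also rich in G, and of all 59 with at least 40% G, 81.4% were enriched in Red, the 5 members among them included. Length and G content were not tested against each other.

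m7G-RIP-seq gave counts for more of the list. Of the 83 miRNAs, 61 had 10 counts in 5 libraries and entered the test, and 18 had them in all 10. DESeq2 called 27 of the 61 enriched in IP and 6 depleted, which is 44.3% and 9.84% of them, where 27.3% and 29.9% of all 670 miRNAs tested were called. The median log2 was 1.00 for the 61 and 0.02 over all. As the levels in these libraries chose the members, these counts describe them and are not a test of the list. As the test asked for 5 libraries, a member short of 10 counts in any of its 5 Input libraries needed an IP library to enter. Of the 61, 12 lacked 10 counts even in 3 Input libraries and so needed several IP libraries, and 9 of those were called enriched. Among the 49 with 10 counts in at least 3 Input libraries, 18 (36.7%) were enriched and 6 (12.2%) depleted, against 24.8% and 31.6% of the 633 miRNAs with that much Input. This subset is not free of the filter, because 3 Input libraries do not make the 5 it asks for. Of the 18, miR-4706, miR-4731-5p, miR-4758-5p, miR-4647 and miR-4749-3p still needed IP libraries to enter. Nothing is read from these shares. IP and Input libraries did not overlap for 22 of the 61 (36.1%), against 42.4% of all tested.

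**Figure D2:**
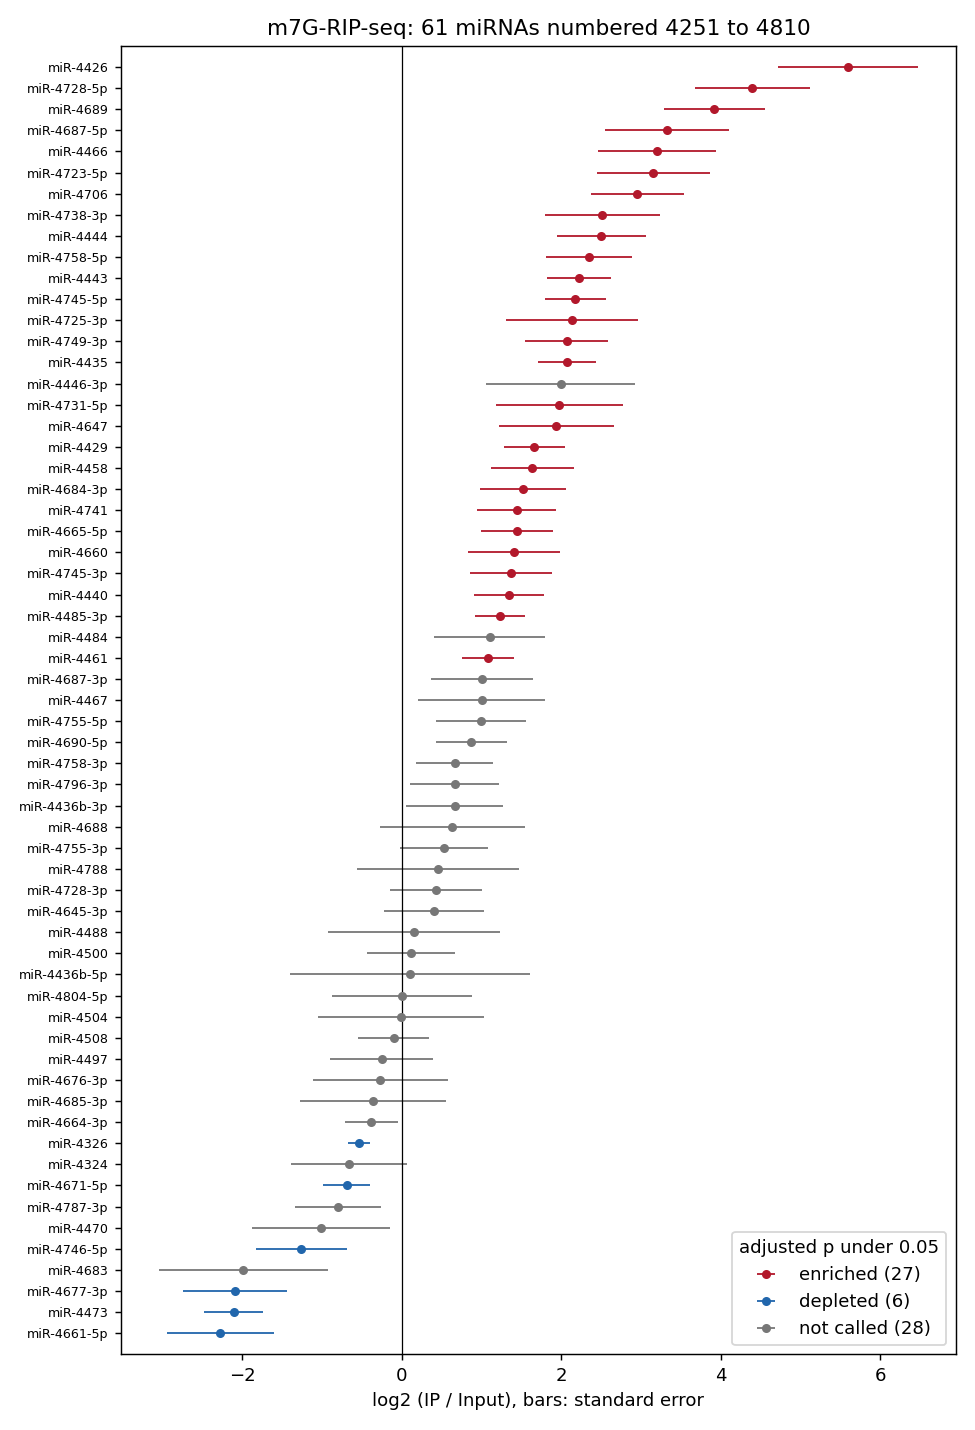
Log2 ratio of IP to Input for the 61 miRNAs tested in m7G-RIP-seq, ordered by size, with bars of 1 standard error and colour for the call at an adjusted p under 0.05. The 27 enriched miRNAs run from miR-4426 at 5.59 down to miR-4461 at 1.08, and the 6 depleted ones from -0.54 to -2.28.

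miR-4426 had the largest fitted log2 of the 61, and with 2, 18, 2, 3 and 1 counts in Input it needed its IP libraries to enter the test. Its normalised counts were 2.26, 11.4, 1.40, 1.86 and 0.533 in Input and 198, 247, 358, 30.4 and 16.5 in IP, with a log2 of 5.59 ± 0.87. Every IP library was above every Input library, but IP replicates 1 to 3 were far above 4 and 5. Within replicates 1 to 3 the log2 was 5.63 and within 4 and 5 it was 4.24, and both sets called it.

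The next 5 were also near 0 in Input and needed their IP libraries to enter the test. miR-4728-5p, from an intron of ERBB2 (chromosome 17, 39726496 to 39726518, plus strand), the gene of a growth factor receptor, had 3.39, 0, 4.90, 3.73 and 0.533 normalised counts in Input and 22.4, 75.1, 88.5, 36.5 and 34.3 in IP (log2 4.39 ± 0.73). miR-4689 (chromosome 1, 5862711 to 5862732, minus strand, intergenic) had 0 to 4.45 in Input and 20.9 to 54.8 in IP (log2 3.91 ± 0.63). miR-4687-5p, in the UTR of an annotated transcript of STIM1 (chromosome 11, 3856073 to 3856094, plus strand), a sensor of calcium stores, had 0 to 7.46 and 8.11 to 42.1 (log2 3.33 ± 0.78). None of these groups overlapped.

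miR-4466 and miR-4723-5p were alike. miR-4466, 13 of whose 18 bases are G, had 0 to 8.26 in Input and 13.2 to 48.5 in IP (log2 3.20 ± 0.74). miR-4723-5p, from an exon of a TMEM199 transcript (chromosome 17, 28360660 to 28360683, plus strand), had 0 to 6.93 and 20.9 to 50.8 (log2 3.15 ± 0.71). Of the 5, miR-4687-5p lost its call within replicates 4 and 5 (log2 1.86, adjusted p = 0.18).

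miR-4706 and miR-4738-3p completed the 8 largest. Both again needed IP libraries to enter the test, as miR-4706 had 1, 6, 21, 13 and 10 counts in Input and miR-4738-3p had 5, 2, 13, 1 and 7. miR-4706, in introns of FNTB (chromosome 14, 65044697 to 65044721, plus strand), had 1.13 to 14.7 normalised counts in Input and 30.3 to 87.6 in IP (log2 2.95 ± 0.58). miR-4738-3p, from an exon of the histone gene H3-3B (chromosome 17, 75784530 to 75784551, minus strand), had 0.621 to 9.10 and 9.84 to 40.5 (log2 2.51 ± 0.72), and within replicates 1 to 3 it was not called (log2 1.77, adjusted p = 0.21). Neither overlapped between groups. The other 19 enriched miRNAs had a log2 of 1.08 to 2.50, and over all 27 the groups did not overlap for 18. Over all 61 tested members, called or not, they did not overlap for 36.1%, against 42.4% of all miRNAs tested.

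Depletion in IP was seen for some of the better counted members. miR-4473, from an intron of MLLT3 (chromosome 9, 20411161 to 20411182, minus strand), had 621, 582, 617, 592 and 697 normalised counts in Input and 177, 43.1, 118, 244 and 137 in IP. Every IP value was below every Input value, and the log2 was -2.11 ± 0.37 (adjusted p = 4.4e-08). miR-4326 had 2498, 2505, 2535, 2883 and 2817 in Input and 2209, 1643, 1610, 1755 and 1896 in IP, again with no overlap (log2 -0.54 ± 0.14, adjusted p = 0.00037). With sizes set by total counts, miR-4326 was no longer called (-0.21).

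miR-4661-5p and miR-4677-3p fell by as much as miR-4473 in the fit, from lower levels. miR-4661-5p had 30.5, 116, 90.3, 20.5 and 21.9 in Input and 18.5, 6.15, 16.9, 3.04 and 13.96 in IP (log2 -2.28 ± 0.67, adjusted p = 0.0017). miR-4677-3p, from an intron of SDCCAG8 (chromosome 1, 243346225 to 243346246, plus strand), had 88.2, 76.9, 58.8, 45.4 and 48.5 against 13.2, 1.23, 2.11, 27.4 and 29.2 (log2 -2.09 ± 0.65, adjusted p = 0.0032). Both had separate groups, and both were called within replicates 1 to 3 (-2.55 and -3.75) and not within 4 and 5 (-1.43, adjusted p = 0.27, and -0.82, 0.28).

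The call of the last 2 depended on the fit. miR-4746-5p had 174, 146, 175, 45.4 and 50.6 in Input and 59.4, 65.2, 78.0, 36.5 and 8.88 in IP (log2 -1.26 ± 0.57, adjusted p = 0.046). The IP values of replicates 1 to 3 overlapped the Input values of 4 and 5. Leaving out 1 library ended the call of miR-4746-5p in 7 of 10 cases: without Input replicate 1 (-1.13), 2 (-1.17) or 3 (-1.07), or without IP replicate 1 (-1.32), 2 (-1.36), 4 (-1.13) or 5 (-0.96). edgeR did not call it (-1.22, adjusted p = 0.085). Nor was it called with total-count scaling (-0.86, adjusted p = 0.17), with TMM scaling or within replicates 4 and 5 (-1.14, 0.20). At each of the 5 replicate numbers the IP value was the lower, and with the replicate number as a block the log2 was -1.29 ± 0.38 (adjusted p = 0.0013).

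miR-4671-5p, from an intron of SLC35F3 (chromosome 1, 234306476 to 234306497, plus strand), had 53.1, 76.2, 82.6, 72.7 and 61.3 in Input and 36.9, 41.8, 25.3, 56.7 and 50.8 in IP (log2 -0.69 ± 0.29, adjusted p = 0.035). Only the highest IP value lay above the lowest Input value. The call of miR-4671-5p ended without Input replicate 2 (-0.66), 3 (-0.63), 4 (-0.68) or 5 (-0.74), without IP replicate 1 (-0.61), 3 (-0.57) or 5 (-0.72), with edgeR (-0.69, adjusted p = 0.11), with no count filter (-0.73, 0.067) and with the replicate number as a block (-0.72 ± 0.37, adjusted p = 0.080). Total-count scaling ended the call of miR-4671-5p too (-0.36, adjusted p = 0.27), and so did replicates 1 to 3 (-1.04, 0.11) or 4 and 5 (-0.40, 0.53) alone. The block also ended the call of miR-4660 (1.46, adjusted p = 0.062) and added miR-4683 (-3.30, 0.0089) and miR-4470 (-1.92, 0.049). miR-4664-3p, second in abundance, was not called: it had 1022, 875, 886, 383 and 367 in Input and 663, 367, 594, 545 and 542 in IP (log2 -0.38 ± 0.34, adjusted p = 0.33). Its Input level was lower in replicates 4 and 5 than in 1 to 3, and the IP values overlapped the Input values. Within replicates 1 to 3 miR-4664-3p was called depleted (log2 -0.80, adjusted p = 0.0018). Within 4 and 5 its log2 was positive and not called (0.45, adjusted p = 0.054).

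Replicates 1 to 3 and 4 and 5 stood apart for a part of the list, in Input as well as IP. The labels give no reason, and the cause was not tested. miR-4467, which was not called in the full fit, is named as an example after its values were seen. It had 87.0, 91.5, 48.3, 28.6 and 14.4 in Input and 243, 145, 126, 22.3 and 3.81 in IP, a log2 of 1.16 within replicates 1 to 3 (adjusted p = 0.018) and of -0.78 within 4 and 5 (adjusted p = 0.56). The difference between the sets was not tested.

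The 22 members that did not enter the test had few counts. miR-4425 and miR-4802-3p were at 0 in all 5 IP libraries. miR-4425 had 6, 15, 9, 10 and 25 counts in Input, at least 11.2-fold higher than the limit of 3 counts over the IP group. miR-4802-3p had 5, 10, 2, 16 and 14, at least 8.12-fold higher. When 10 counts in 3 of the 10 libraries were asked for, all 83 were tested. Of the 22 then added, 3 were called enriched (miR-4676-5p, miR-4749-5p and miR-4667-3p) and 2 depleted (miR-4425 and miR-4802-3p). Over all 793 miRNAs of that fit, 196 were called enriched and 229 depleted. That filter is the rule that chose the members. The 3 reached it through their IP libraries and the 2 through their Input libraries, so nothing is read from these calls.

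Enrichment in IP went along with the G content of the mature sequence. Among the members with a sequence, the 25 enriched ones had a median of 45.5% G, the 4 depleted ones 20.5% and the 25 not called 30.4%. Over all miRNAs tested with a sequence the medians were 40.9%, 22.7% and 27.3%. Of the 27 members with at least 40% G, 19 were enriched and 0 depleted. Of all 131 such miRNAs, 67.9% were enriched and 5 were depleted. Of the 12 members under 25% G, 2 were enriched and 3 depleted, and of all 249, 13.7% and 106. The members lie on the relation of all miRNAs: the correlation of log2 with G content was 0.44 (Pearson) and 0.49 (Spearman) over the 54 members, and 0.43 and 0.45 over all 602. These miRNAs share libraries and are not independent replicates.

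**Figure D3:**
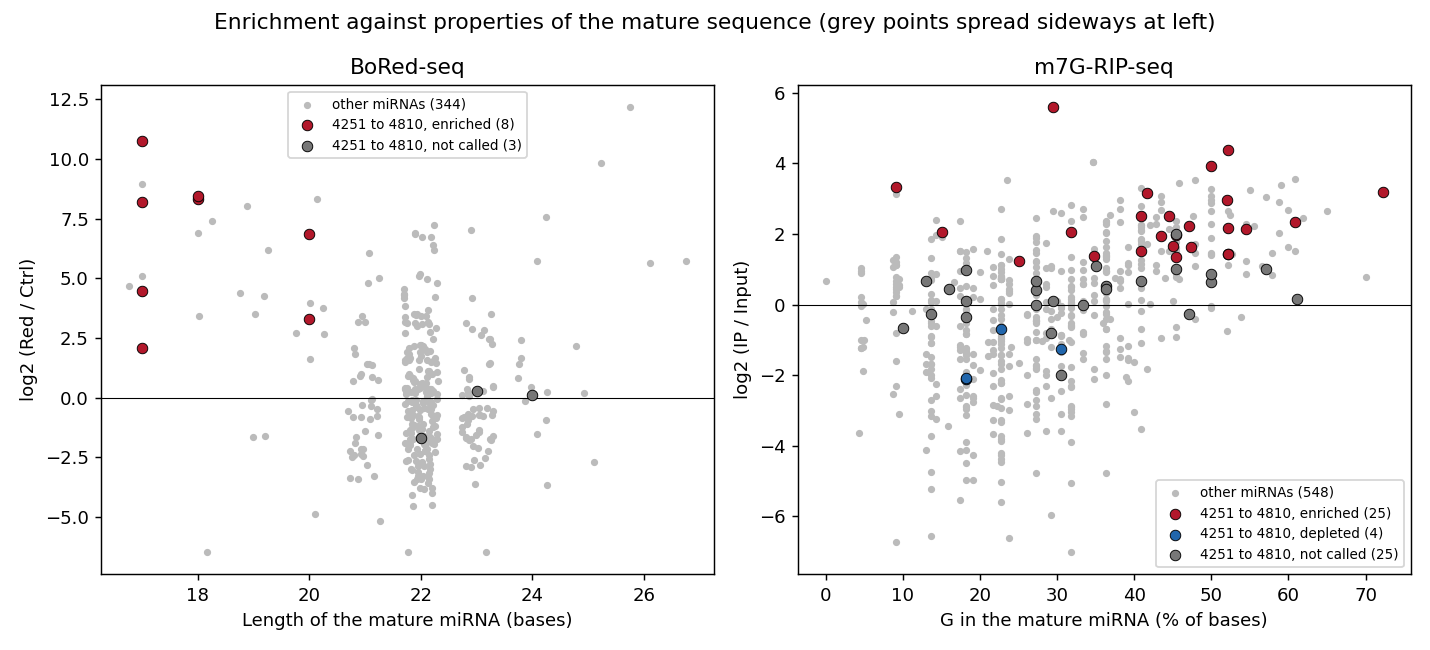
Left, BoRed-seq log2 (Red over Ctrl) against the length of the mature miRNA in bases, and right, m7G-RIP-seq log2 (IP over Input) against its G content in percent of bases, with large points for the miRNAs described here coloured by call and grey points for all others tested that have a sequence. The enriched members at left are all 17 to 20 bases long, and at right most enriched members lie above 40% G, with miR-4426 and miR-4687-5p as high points at lower G content. Points at left with at most 3 counts in Ctrl have a fitted value with no firm upper limit.

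miR-4687-5p went against that relation. It has 2 G in 22 bases, 9.09%, and a log2 of 3.33 ± 0.78, while its partner miR-4687-3p, with 57.1% G, had 1.00 ± 0.64 (adjusted p = 0.17). miR-4728 was the reverse, with 52.2% G and 4.39 ± 0.73 for the 5p arm and 16% G and 0.43 ± 0.58 (adjusted p = 0.53) for the 3p arm. The share of the 5p arm in the counts of both arms does not depend on how libraries are scaled and is given as a description. In 8 hairpins both arms were members and each library had at least 5 counts of the pair. A permutation test of IP against Input over these 8 gave no adjusted p under 0.05 (lowest 0.063). Nothing is read from that test, because the same counts chose the members. Besides, miR-4728-5p and miR-4687-5p were members through their IP libraries. The share of miR-4728-5p was 16.7% ± 17.96 (SD, n = 5) in Input and 68.5% ± 19.4 in IP, and that of miR-4687-5p 16.3% ± 17.1 and 52.9% ± 20.7. The mean share was also higher in IP for miR-4676, miR-4745, miR-4749 and miR-4758. It was lower in IP for miR-4796 (31.5% ± 21.3 in Input and 2.63% ± 5.88 in IP) and for miR-4485 (8.84% ± 4.40 and 2.50% ± 3.11). miR-4717 and miR-4755 were left out because a run of 21 and of 20 bases in one arm is the reverse complement of the other arm. The arms of miR-4717 had equal counts in 13 of the 14 libraries and those of miR-4755 in 7, though in no Input library.

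Both assays gave an adjusted p for 15 of the 83. miR-4426, miR-4444, miR-4443, miR-4429, miR-4485-3p and miR-4461 were enriched in both, 6 of 15, where 18.2% of all 384 miRNAs with both values were. Of these 6, 5 reached the BoRed-seq filter through Red alone and all were selected on their m7G-RIP-seq counts, so nothing is read from that count. miR-4326 alone was depleted in both, and 0 were called in opposite directions.

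The 6 that were enriched in both had these levels in m7G-RIP-seq. miR-4444 had 151, 222, 157, 84.5 and 65.0 in Input and 873, 881, 1673, 243 and 178 in IP (log2 2.50 ± 0.56, adjusted p = 2.5e-05), where the lowest IP value was under the highest Input value, but within replicates 1 to 3 (2.66) and 4 and 5 (1.41) it was called. miR-4443 had 121, 120, 90.3, 38.5 and 46.9 against 269, 516, 594, 269 and 293 (2.22 ± 0.40, adjusted p = 1.2e-07). miR-4429 had 110, 131, 116, 72.1 and 72.5 against 430, 463, 381, 155 and 154 (1.66 ± 0.38, adjusted p = 4.7e-05).

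Both miR-4443 and miR-4429 had every IP library above every Input library, as did miR-4485-3p and miR-4461. miR-4485-3p had 37.3, 66.1, 51.1, 74.0 and 61.3 in Input and 120, 162, 188, 77.0 and 138 in IP (1.23 ± 0.31, adjusted p = 0.00023), with a log2 of 0.58 within replicates 4 and 5 (adjusted p = 0.29). miR-4461 had 43.0, 36.2, 56.0, 37.9 and 33.6 against 143.8, 72.6, 78.0, 60.8 and 79.9 (1.08 ± 0.32, adjusted p = 0.0021), and within neither replicate set alone was it called (1.10, adjusted p = 0.059, and 0.89, 0.16).

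**Figure D4:**
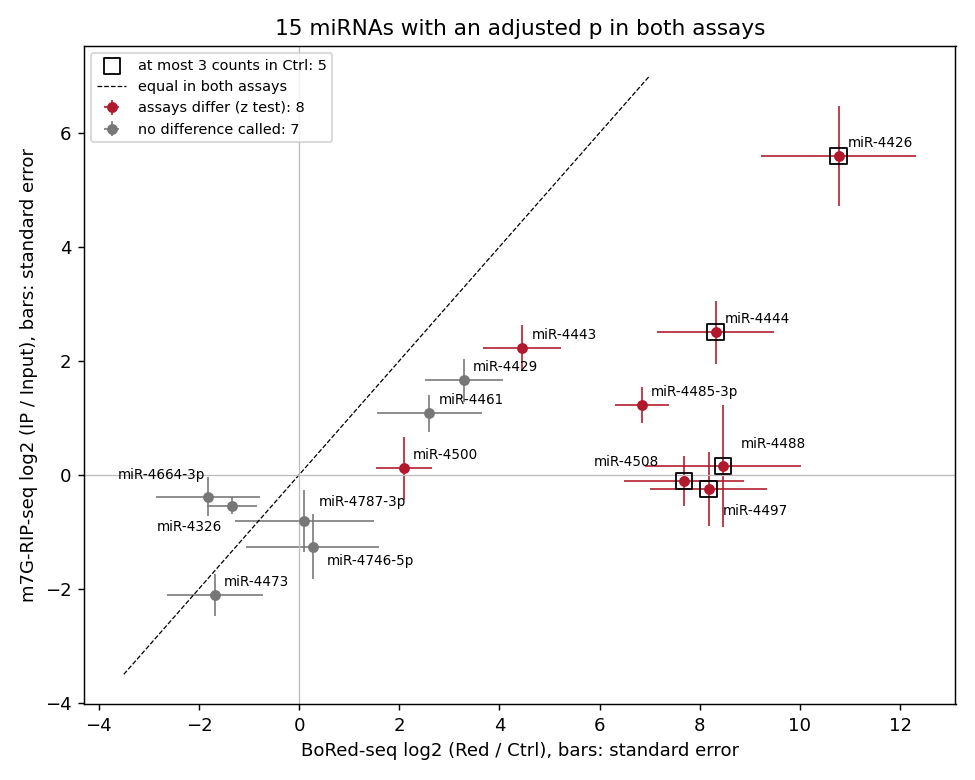
BoRed-seq log2 (Red over Ctrl) against m7G-RIP-seq log2 (IP over Input) for the 15 miRNAs with an adjusted p in both, with bars of 1 standard error; red points are the 8 whose values differed by the z test, and squares mark the 5 with at most 3 counts in Ctrl, whose BoRed-seq value is not a firm estimate. All 8 lie on the BoRed-seq side of the dashed line of equal enrichment.

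Others were enriched in Red and flat in IP. miR-4497 had 9.04, 26.7, 22.4, 18.02 and 30.9 normalised counts in Input and 35.6, 33.2, 8.43, 5.07 and 7.61 in IP (log2 -0.25 ± 0.65, adjusted p = 0.76). miR-4508 had 18.1 to 37.9 and 15.2 to 43.5 (-0.11 ± 0.44, adjusted p = 0.86). miR-4488 had 4.35 to 17.6 and 0 to 40.6 (0.15 ± 1.08, adjusted p = 0.91).

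The groups of these miRNAs overlapped, and the standard errors of 0.44 to 1.08 on the log2 scale are as large as or larger than the differences, which does not show that they were equal. miR-4500 had 10.7 to 17.1 in Input and 22.4, 23.4, 21.1, 6.08 and 5.08 in IP (0.11 ± 0.55, adjusted p = 0.88), above all Input values in replicates 1 to 3 and below them in 4 and 5. miR-4458, with the same let-7 seed, was enriched in IP (1.64 ± 0.52, adjusted p = 0.0038) and had 2 and 0 counts in Ctrl and 1 and 0 in Red.

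A z test of the difference between the assays, adjusted over 384 miRNAs, found 8 of the 15 to differ, all with the higher log2 in BoRed-seq, where 29.4% of all tested did so. All but miR-4500 of these reached the BoRed-seq filter through Red alone, so that the direction was largely set by the filter. Besides miR-4497, miR-4508, miR-4488 and miR-4500 these were miR-4485-3p, miR-4444, miR-4426 and miR-4443, 4 of the 6 enriched in both assays. As these 4 entered BoRed-seq through Red alone, the test cannot tell whether they were enriched by different amounts. miR-4485-3p differed by 5.61 on the log2 scale (adjusted p of the z test = 7.4e-18). The assays differ in depth, in the number of libraries and in their control RNA, and their part in this difference was not tested.

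The other number ranges are given for comparison. In m7G-RIP-seq, 21.1% of the 304 tested miRNAs up to miR-499 were enriched, 19.2% of the 99 from miR-500 to miR-999, 33.3% of the 51 from miR-1000 to miR-1999, 35.4% of the 82 from miR-2000 to miR-4250, 43.5% of the 62 from miR-4251 to miR-4810 and 37.5% of the 72 above. In BoRed-seq the enriched shares in the same order were 22.0% of 255, 25.5% of 55, 53.8% of 26, 65.5% of 29, 75.0% of 20 and 73.3% of 15. Both counts for the range of the members include miRNAs outside the 83, and a scarce miRNA enters BoRed-seq mostly through Red, as above.

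By GENCODE, 22 of the 72 members with a locus read lay in an exon of another gene on the same strand. Of the 18 of these that were tested in m7G-RIP-seq, 12 were enriched and 0 depleted. Among the 12, miR-4426, miR-4687-5p, miR-4723-5p, miR-4738-3p, miR-4758-5p and miR-4647 needed IP libraries to enter. Of the 36 in an intron on the same strand, 26 were tested, and 7 were enriched and 3 depleted. Among the 7, miR-4728-5p, miR-4725-3p, miR-4706, miR-4731-5p and miR-4749-3p needed IP libraries to enter. Of the 4 tested that lay in no gene other than the miRNA, 3 were enriched and 0 depleted. Of the 6 tested with a gene on the opposite strand only, 3 were enriched and 1 depleted. Among the enriched of these last classes, miR-4689 and miR-4466 needed IP libraries to enter. Whatever the class, 11 lay in an intron of at most 200 bases of some transcript, as the arms of miR-4745 in PTBP1, miR-4758 in LAMA5 and miR-4749 in PTOV1 do, and 5 of the 8 of these that were tested were enriched. Among the 5, miR-4723-5p, miR-4749-3p and miR-4758-5p needed IP libraries to enter. Over all miRNAs tested, whatever their placement, 27.3% were enriched and 29.9% depleted. Placement was not tested, and its part beside G content was not tested either.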

How the data were processed

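Small RNA was sequenced from A549 cells with a NEBNext small RNA kit in 4 BoRed-seq and 10 m7G-RIP-seq libraries. The authors deposited 1 table of raw counts per mature miRNA for each assay, not normalised. Their methods name STAR (end to end, at most 1 mismatch, at most 10 loci, at least 16 matched bases) and miRBase mature annotation, whereas the submitters' processing notes list Trimmomatic, Bowtie2, featureCounts and the build GRCh38/hg38, so the aligner of these files is not settled. Reads of a mature sequence with several loci can be counted once per locus or lost, and reads of other RNAs that hold a short miRNA sequence can be counted as that miRNA.

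Each assay was fitted on its own with DESeq2 1.42.0 in R 4.3.3 (Wald test, median-of-ratios size factors, log2 not shrunken), keeping miRNAs that reached 10 counts in 2 or more BoRed-seq libraries or in 5 or more m7G-RIP-seq libraries. P-values were adjusted over all miRNAs of the fit by Benjamini-Hochberg, and a call needed an adjusted p under 0.05. Independent filtering left some miRNAs without an adjusted p. The 2 log2 values of a miRNA were compared by a z test on their standard errors. Alternatives were edgeR 4.0.16 (quasi-likelihood), TMM and total-count scaling, other count filters, thinned Ctrl libraries, the replicate number as a block, replicate sets and libraries left out. Division of counts by a common factor, and leaving out BoRed-seq libraries with the miRNAs of the full fit kept, were added after seeing the data. The fits were tested on simulated data. Counting intervals were computed in Python 3.11.15 with SciPy 1.17.1.

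In m7G-RIP-seq the replicate numbers, taken from the labels, served as a block in 1 alternative. Same-numbered samples deviated together from their group means (correlations of 0.15 to 0.39). However, Input replicate 2 correlated best with IP replicate 1 (0.17) and Input replicate 4 with IP replicate 5 (0.37). Whether the numbers pair Input with IP is thus not settled. The unblocked fit is given and the blocked value stands beside a result where it changed a call.

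The members and lists were chosen with earlier results of these data known. Named with values were members called in BoRed-seq or in both assays, the 8 with the largest log2 per direction among those called in m7G-RIP-seq, those past the z test, the 5 with the highest mean Input level and 3 on each side of the count rule. Arm partners, seed partners, host gene examples, miR-4435, the arms of miR-4436b and miR-4467, and members whose call changed under another setting, were named after their values were seen. Mature sequences came from RefSeq and gene features from GENCODE and RefSeq on GRCh38; no sequence was printed for 11 members that the table did not match: miR-4326, miR-4461, miR-4470, miR-4485-5p, miR-4508, miR-4660, miR-4661-5p, miR-4664-3p, miR-4726-5p, miR-4748 and miR-4792.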

Additional observations from a re-analysis of the deposited data

Results flagged for a closer look

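Among 25 named members and the Input and IP groups of 5, 50 groups were searched for a library far from the other 4, and 3 held one. Chance gives about 1 in 20 groups. miR-4426 had 11.4 normalised counts in Input replicate 2, against 0.533 to 2.26 in the other Input libraries. miR-4461 had 143.8 in IP replicate 1, against 60.8 to 79.9 in the other IP libraries. miR-4723-5p had 50.8 in IP replicate 5, against 20.9 to 29.0 in the others.

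The enrichment of 8 members differed between the assays, each with the higher log2 in BoRed-seq. The differences on the log2 scale were 8.43 for miR-4497 (adjusted p of the z test = 3.8e-09), 8.32 for miR-4488 (7.4e-05), 7.79 for miR-4508 (1.7e-08), 5.82 for miR-4444 (5.1e-05), 5.61 for miR-4485-3p (7.4e-18), 5.18 for miR-4426 (0.012), 2.23 for miR-4443 (0.031) and 1.98 for miR-4500 (0.033). For miR-4426, miR-4444, miR-4488, miR-4497 and miR-4508 the BoRed-seq value rests on at most 2 counts in Ctrl, so that the size of the difference is not a firm estimate. All of the 8 but miR-4500 had at least 10 counts in both Red libraries and not in both Ctrl libraries, and so had to be high in Red to be tested.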

How the results depend on the processing

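No member named with a call changed direction under any alternative, and of 542 single-member values 493 stayed on the same side of the threshold and 49 lost the call. In BoRed-seq the 1 depleted member became 5 with edgeR and 0 with total-count scaling or with Ctrl thinned to the depth of Red. Total-count scaling moved the median log2 of all miRNAs by 1.28 in BoRed-seq, where the enriched share of all calls went from 54.2% to 79.2%, and by 0.36 in m7G-RIP-seq (47.8% to 58.6%), and left 3 depleted members in m7G-RIP-seq in place of 6. TMM scaling moved the BoRed-seq median by -0.42. Requiring 10 counts in every library left 1 enriched in BoRed-seq, 12 enriched and 3 depleted in m7G-RIP-seq, 0 enriched in both and 0 that differed between assays, since few members could be tested. Replicates 4 and 5 alone gave 17 enriched in m7G-RIP-seq, and thinned Ctrl libraries gave 5 that differed.

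With 1 library left out, BoRed-seq gave 2 to 9 enriched (3 without Red replicate 1, 2 without Red replicate 2) and 0 to 1 depleted, m7G-RIP-seq 20 to 26 enriched and 4 to 6 depleted, both assays 1 to 6 enriched (2 without Red replicate 1, 1 without Red replicate 2), and 0 to 8 differed (0 without either Red library, 5 without either Ctrl library, 4 without Input replicate 2). With the miRNAs of the full fit kept, these were 9 to 11 enriched and 0 to 1 depleted in BoRed-seq, 5 to 6 in both and 5 to 6 that differed (5 without either Ctrl library). The depleted count was then 0 without Ctrl replicate 1, Ctrl replicate 2 or Red replicate 2.

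With the replicate number as a block, m7G-RIP-seq gave 26 enriched and 7 depleted members, and the block changed no call there other than those of miR-4671-5p, miR-4660, miR-4683 and miR-4470. In BoRed-seq same-numbered libraries had a correlation of 0.11. The replicate block there gave 10 enriched and 1 depleted and ended the call of miR-4461 (2.60, adjusted p = 0.087). The test of the difference was not run with edgeR, which gave no standard error. The 64 members not tested in BoRed-seq had at most 15 counts in any Ctrl and 8 in any Red library.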
